A study of Oryctolagus cuniculus with 6 samples.

Results

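The genes described here were 42 genes of the skeletal muscle contractile apparatus in the injured rabbit facial nerve: the sarcomere, the calcium release machinery, 2 energy enzymes and 2 small heat shock proteins. The list was put together with earlier results of these same libraries known, namely that muscle genes stood high in part of the FNI+I-125 group. The levels and differences of these genes in the 6 libraries are therefore a description, and no test is read from them. Of the 42 genes, 37 were found among the 17396 genes of the count files, 36 by symbol and XIRP2 through its LOC number. MYH2, MYH7, TNNC2, TNNI2 and TNNT3, which encode fast IIa and slow myosin heavy chains and the fast troponins, were not analysed here.

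The libraries came from male Japanese white rabbits aged 3 to 4 months, with 1 library per rabbit and no genetic change named in the labels. In both groups the main trunk of the facial nerve had been cut, which is the facial nerve injury (FNI) model. The FNI+I-125 group (n = 3) also received an iodine-125 seed of 0.8 mCi placed 0.3 to 0.5 cm from the nerve, and the FNI group (n = 3) received none. All nerves were taken on day 14, so the controls share the cut and its time with the treated rabbits, and uncut nerve was not analysed here. At surgery the trunk was reached behind the ear by parting muscle. How the nerve was dissected at harvest is not described.

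The sarcomere is the contractile unit of striated muscle, in which thin filaments of actin, tropomyosin and troponin slide along thick filaments of myosin, held in register by the Z disc, the M band and the giant proteins titin and nebulin. An electrical impulse is sensed by the voltage sensor in the transverse tubule, which opens the ryanodine receptor of the sarcoplasmic reticulum, and the released calcium binds troponin and permits contraction. Peripheral nerve is made of axons, Schwann cells, fibroblasts, vessels and fat and has no sarcomeres, and many sarcomere proteins come in a fast and a slow form whose proportions mark the type of a muscle fibre.

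Total counts per library ran from 16031151 to 16798012, and 15661 to 16139 genes had a count. Levels are given as CPM, a gene's counts relative to its library's total, adjusted by TMM factors of 0.923 to 1.06. They are not per unit of gene length, so they compare libraries and not genes. The 13 Schwann cell markers had counts in every library, with summed levels of 4521 to 38921 CPM in the FNI group and 874 to 4150 CPM in the FNI+I-125 group. FNI+I-125 replicates 1 and 2 stood apart from the other 4 libraries in the muscle genes, and results are given with and without single libraries for that reason.

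The muscle genes were abundant in FNI+I-125 replicates 1 and 2 and sparse in the other 4 libraries, including FNI+I-125 replicate 3. Together the 37 genes held 0.0240%, 0.0141% and 0.0198% of all counts in FNI replicates 1 to 3, in that order, which is also the order used for every value that follows. In the FNI+I-125 group they held 0.767%, 0.732% and 0.0111%. The shares of FNI+I-125 replicates 1 and 2 were 32.0 and 30.5 times that of the highest FNI library, whereas the lowest FNI library held 1.27 times the share of FNI+I-125 replicate 3. The group means were 0.0193% ± 0.00496 (SD, n = 3) and 0.503% ± 0.427 (SD, n = 3), so the SD of the FNI+I-125 group was close to its mean and the groups overlapped. In bulk tissue, a larger number of muscle cells and more muscle RNA per cell cannot be told apart.

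The same split was seen gene by gene. Every one of the 37 genes was higher in FNI+I-125 replicates 1 and 2 than in every FNI library, an order seen in 19% of all genes. None was higher in FNI+I-125 replicate 3 than in every FNI library, against 31.1% of all genes, and 19 were lower there than in every FNI library, against 23.9% of all genes. For the other 18, FNI+I-125 replicate 3 lay within the range of the FNI group. As a result the groups as labelled overlapped for all 37 genes, while 12.7% of all genes were higher and 10.7% lower without overlap. Since the list was chosen on this contrast, these shares are printed for scale only.

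**Figure D1:**
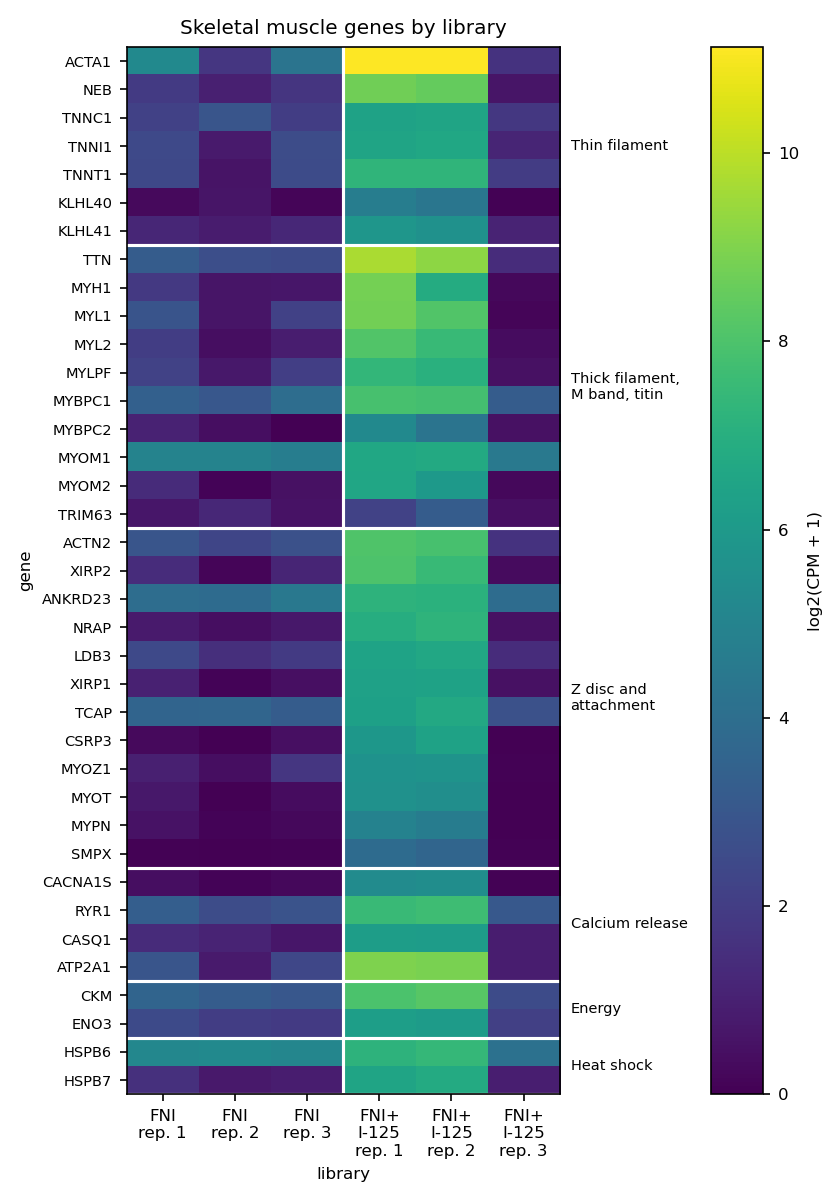
Level of each of the 37 muscle genes (rows, grouped by role) in each of the 6 libraries (columns), as log2(CPM + 1) on the colour scale. FNI+I-125 replicates 1 and 2 form 2 bright columns, with ACTA1 brightest at 2236 and 2200 CPM, and FNI+I-125 replicate 3 resembles the 3 FNI columns.

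The size of the excess differed between the genes. The lower of FNI+I-125 replicates 1 and 2 was a median of 36.6 times the highest FNI library over 36 genes, leaving out SMPX, which had at most 1 count in an FNI library. It was 100 times or more for 5 genes, 10 to 100 times for 26 and under 10 times for 5. CSRP3, the muscle LIM protein of the Z disc, stood highest at 166 times, followed by NRAP at 160, NEB at 136, CACNA1S at 116 and XIRP2 at 104 times. The highest FNI library held only 6 counts of CSRP3, 13 of NRAP and 6 of CACNA1S, so the size and order of these folds are uncertain. At the other end were TCAP at 7.11 times, ANKRD23 at 6.67, HSPB6 at 3.86, MYOM1 at 3.24 and TRIM63 at 2.59 times. Of these 5, TCAP, ANKRD23, HSPB6 and MYOM1 had levels of at least 8.57 CPM in every FNI library, whereas TRIM63 was low in all 6 libraries, at 0.352 to 8.34 CPM.

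Among thin filament genes, ACTA1, the skeletal muscle α-actin, was the most uneven within the FNI group. It stood at 37.5, 2.39 and 18.6 CPM in the FNI libraries and at 2236, 2200 and 2.05 CPM in the FNI+I-125 libraries. Its group means were 19.5 ± 17.6 CPM (SD, n = 3) and 1479 ± 1279 CPM (SD, n = 3). FNI replicate 2 and FNI+I-125 replicate 3 were the low libraries, and the 2 groups overlapped. NEB, which encodes nebulin, the protein that runs along the thin filament, had 2.69, 0.945 and 2.25 CPM in the FNI group against 424, 365 and 0.528 CPM in the FNI+I-125 group. KLHL40 and KLHL41 encode kelch proteins that stabilise nebulin and the thin filament, and they followed the same order at lower levels, with at most 0.567 and 1.36 CPM in an FNI library and at least 19.9 and 48.4 CPM in FNI+I-125 replicates 1 and 2.

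The 3 slow troponin subunits, which sense calcium and hold or release the actin sites, were measured without their fast partners. TNNT1 (slow troponin T) had 4.33, 0.504 and 4.79 CPM in the FNI group and 154, 152 and 2.94 CPM in the FNI+I-125 group. TNNI1 (slow troponin I) had 4.45, 0.756 and 4.96 CPM, then 88.8, 98.4 and 1.23 CPM. Both were lowest in FNI replicate 2 among the FNI libraries. TNNC1 (troponin C of slow and cardiac muscle) went the other way within the FNI group, with 3.46, 6.61 and 3.07 CPM, and reached 84.0, 90.7 and 2.52 CPM in the FNI+I-125 group.

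Thick filament genes held the largest differences between FNI+I-125 replicates 1 and 2. TTN, which encodes titin, the elastic protein that spans from Z disc to M band, stood at 8.49, 5.42 and 4.79 CPM in the FNI group and at 839, 605 and 1.64 CPM in the FNI+I-125 group. MYH1, the fast IIx myosin heavy chain, had 2.58, 0.567 and 0.591 CPM against 449.9, 113 and 0.176 CPM. Myosin heavy chain genes lie in a cluster of near-identical copies, so reads may have been divided among them by the counting, and the MYH1 value is uncertain in that respect. MYL1, a fast essential light chain, had 6.44, 0.567 and 3.49 CPM, then 437, 273 and 0.117 CPM. In all 3 genes FNI+I-125 replicate 1 was above replicate 2, and FNI+I-125 replicate 3 was the lowest of the 6 libraries.

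The regulatory light chains and the myosin-binding proteins C, which tune how myosin heads meet actin, were measured in both a fast and a slow form. MYLPF (fast regulatory light chain) had 3.57, 0.630 and 3.19 CPM in the FNI group and 165, 132 and 0.411 CPM in the FNI+I-125 group. Its slow counterpart MYL2 had 3.05, 0.315 and 0.827 CPM, then 275, 177 and 0.294 CPM. Both forms were therefore high in the same 2 libraries. MYBPC1 (slow form) stood at 9.72, 7.18 and 14.8 CPM, then at 233, 222 and 8.39 CPM, and MYBPC2 (fast form) at 1.11, 0.315 and 0 CPM, then at 38.3, 18.2 and 0.411 CPM. For MYBPC1, FNI+I-125 replicate 3 fell inside the FNI range.

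M band and turnover genes were mixed. MYOM2, a myomesin of fast fibres, had at most 1.58 CPM in an FNI library and 96.1 and 64.6 CPM in FNI+I-125 replicates 1 and 2. MYOM1, the general myomesin that cross-links thick filaments, had 30.6, 30.7 and 25.5 CPM in the FNI group and 99.3, 108 and 21.5 CPM in the FNI+I-125 group. Its FNI level was steady, at 28.9 ± 2.99 CPM (SD, n = 3). TRIM63 encodes MuRF1, a ubiquitin ligase that marks muscle proteins for breakdown and is known to rise in denervated muscle, and it had 0.586, 1.39 and 0.473 CPM, then 3.60, 8.34 and 0.352 CPM.

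The Z disc and attachment genes, the largest class, ranged from near absence to a steady base level in the FNI group. ACTN2, the α-actinin that anchors thin filaments, stood at 6.56, 3.97 and 5.67 CPM in the FNI libraries and at 269, 238 and 2.05 CPM in the FNI+I-125 libraries. XIRP2, an actin-binding repeat protein of the attachment sites, had 1.70, 0.126 and 1.24 CPM against 258, 177 and 0.235 CPM. ANKRD23, a titin-associated ankyrin repeat protein, had 14.6, 14.0 and 20.7 CPM against 144, 138 and 14.2 CPM. FNI+I-125 replicate 3 was the lowest library for ACTN2, but within the FNI range for XIRP2 and ANKRD23.

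The other 9 Z disc genes followed the same split. LDB3 and TCAP, which encode a PDZ-LIM protein and telethonin, had 87.0 and 80.1 CPM in FNI+I-125 replicate 1 and 101 and 105 CPM in replicate 2. NRAP, XIRP1, MYOZ1, MYOT, MYPN and CSRP3 were between 24.4 and 152 CPM in those 2 libraries, with at most 2.42 CPM in any of the other 4. SMPX, a small muscle protein, was nearly at the detection limit elsewhere, with counts of 1, 0 and 1 in the FNI group and of 209, 187 and 1 in the FNI+I-125 group. A count of 0 allows up to 3 counts, for counting error only, and no fold is given for SMPX.

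All 4 genes of excitation and calcium release were measured. ATP2A1 (SERCA1), the fast-fibre pump that returns calcium to the sarcoplasmic reticulum, stood at 6.62, 0.756 and 4.14 CPM in the FNI group and at 510.0, 476 and 0.881 CPM in the FNI+I-125 group. RYR1, the calcium release channel, had 9.08, 5.04 and 6.26 CPM, then 183, 205 and 7.34 CPM. For RYR1, FNI+I-125 replicate 3 lay within the range of the FNI libraries, whose mean was 6.79 ± 2.07 CPM (SD, n = 3). CACNA1S, the voltage sensor of the transverse tubule that opens RYR1, had counts of 6, 1 and 3 in the FNI group and of 624, 702 and 1 in the FNI+I-125 group. CASQ1, the fast calsequestrin that stores calcium, had 1.58, 1.13 and 0.591 CPM, then 71.8, 69.8 and 0.881 CPM.

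The voltage sensor and the channel thus differed in how far FNI+I-125 replicates 1 and 2 stood above the FNI libraries. The lower of these 2 was 20.2 times the highest FNI library for RYR1. For CACNA1S it was 116 times, a fold made uncertain by few counts. Counts are not per unit of gene length, so they do not rank the levels of the 2 genes. RYR1 had 80 to 155 counts in every FNI library, whereas CACNA1S had 6 or fewer. In FNI+I-125 replicates 1 and 2 the 2 genes were both abundant, with 2799 and 3368 counts of RYR1 beside the 624 and 702 of CACNA1S.

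The small heat shock proteins had the smallest relative excess of the classes, and the energy enzymes were near the Z disc genes. CKM, the muscle creatine kinase, had 10.8, 8.57 and 7.09 CPM in the FNI group and 254, 302 and 4.76 CPM in the FNI+I-125 group. ENO3, the muscle enolase of glycolysis, had 4.69, 3.09 and 2.66 CPM, then 75.2, 68.7 and 3.35 CPM. HSPB6, a small heat shock protein also made by smooth muscle and other tissues, stood at 34.7, 37.9 and 33.4 CPM, then at 147, 172 and 17.0 CPM. HSPB7, which is largely restricted to heart and skeletal muscle, had 1.93, 0.693 and 0.827 CPM, then 89.0, 111 and 0.939 CPM.

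Summed by class, the excess in FNI+I-125 replicates 1 and 2 over the median FNI library differed between the classes. The 7 thin filament genes were at 87.4 and 84.8 times, and the 4 excitation genes at 72.1 and 71.0 times. Single genes weigh heavily in these 2 sums. In FNI+I-125 replicate 1, ACTA1 gave 2236 of the 3069 CPM of thin filament genes and ATP2A1 gave 510.0 of the 806 CPM of excitation genes. The 10 thick filament genes were at 48.8 and 31.8 times, and the 12 Z disc genes at 29.1 and 28.4 times. The 2 energy enzymes were at 28.2 and 31.8 times, and the 2 heat shock proteins at 6.43 and 7.71 times. In FNI+I-125 replicate 3 all 6 classes were below the FNI median, from 0.299 times for thin filament genes to 0.820 times for excitation genes. In the FNI group the thin filament genes summed to 12.6 to 53.9 CPM and the 2 heat shock proteins to 34.2 to 38.6 CPM.

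**Figure D2:**
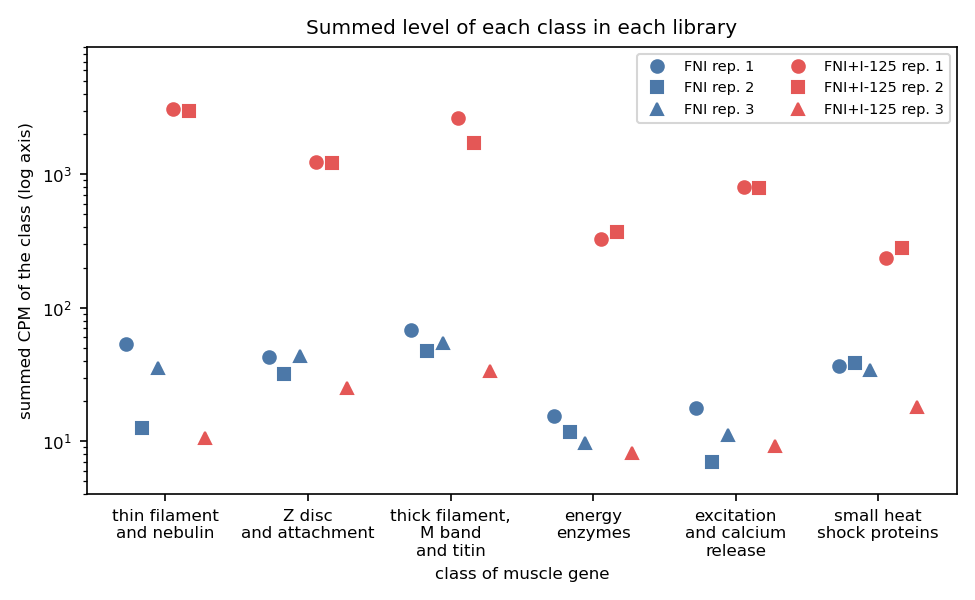
Summed CPM (log axis) of each class of muscle gene in each library, with 1 point per library and no error bars. In all 6 classes FNI+I-125 replicates 1 and 2 lie above the FNI libraries, and FNI+I-125 replicate 3 lies at or below most of them; thin filament genes span 10.5 to 3069 CPM.

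The make-up of the muscle counts also differed between libraries. ACTA1 made up 26.9% and 29.9% of the counts of the 37 genes in FNI+I-125 replicates 1 and 2, 16.0%, 1.61% and 9.90% in the FNI libraries and 1.97% in FNI+I-125 replicate 3. MYOM1 and HSPB6 went the opposite way, with 1.19% and 1.76% in FNI+I-125 replicate 1, against 20.6% and 16.4% in replicate 3. Across the 37 genes, log2 CPM correlated with Pearson's r = 0.956 (Spearman's rho = 0.952) between FNI+I-125 replicates 1 and 2. For FNI replicate 2 with FNI+I-125 replicate 3, from different groups, r was 0.936 (rho = 0.892), and between FNI+I-125 replicates 1 and 3 it was 0.244 (rho = 0.388). FNI replicate 1 came nearer to FNI+I-125 replicates 1 and 2 (r = 0.639 and 0.708) than FNI replicate 2 did (r = 0.236 and 0.338). These are descriptions over genes of 1 list, which share length and base composition across libraries.

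The FNI libraries were not equal in muscle genes either. FNI replicate 1 was the highest of the 3 for 23 genes, FNI replicate 3 for 8 and FNI replicate 2 for 6. FNI replicate 2 was the lowest for 26 genes and FNI replicate 1 for none. For the 33 genes with a count in every FNI library, the highest library was a median of 2.85 times the lowest, from 1.14 to 25.1 times, and 10 genes stayed within 2 times. Genes at 0 counts numbered 0, 3 and 1 in the FNI group and 0, 0 and 3 in the FNI+I-125 group.

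The proportion of fast and slow forms is a ratio within a library. It could be formed for MYLPF with MYL2 and for MYBPC2 with MYBPC1, in counts and not per length, so the values compare libraries only. MYLPF made up 37.6% (exact 95% binomial interval 36.4% to 38.7%) and 42.6% (41.2% to 44.0%) of the pair in FNI+I-125 replicates 1 and 2. In FNI replicates 1 and 3 it made up 54.0% (44.4% to 63.4%) and 79.4% (67.9% to 88.3%), so the fast light chain took a smaller part of the counts of the pair where muscle genes were abundant than in these 2 libraries. FNI replicate 2 and FNI+I-125 replicate 3, with 15 and 12 counts of the pair, gave 66.7% (38.4% to 88.2%) and 58.3% (27.7% to 84.8%), which cannot be placed at this depth. The intervals cover counting error only and not differences between rabbits.

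The myosin-binding proteins did not give the same order. MYBPC2 made up 14.1% (13.1% to 15.2%) and 7.58% (6.78% to 8.45%) of its pair in FNI+I-125 replicates 1 and 2. In the FNI libraries the share was 10.3% (6.30% to 15.6%), 4.20% (1.38% to 9.53%) and 0%, where 0 of 250 counts allow a share of up to 1.46% by the same exact interval. FNI+I-125 replicate 3 gave 4.67% (1.90% to 9.38%). The slow form thus held most counts of the pair in all 6 libraries, and the intervals of FNI+I-125 replicates 1 and 2 did not overlap each other.

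**Figure D3:**
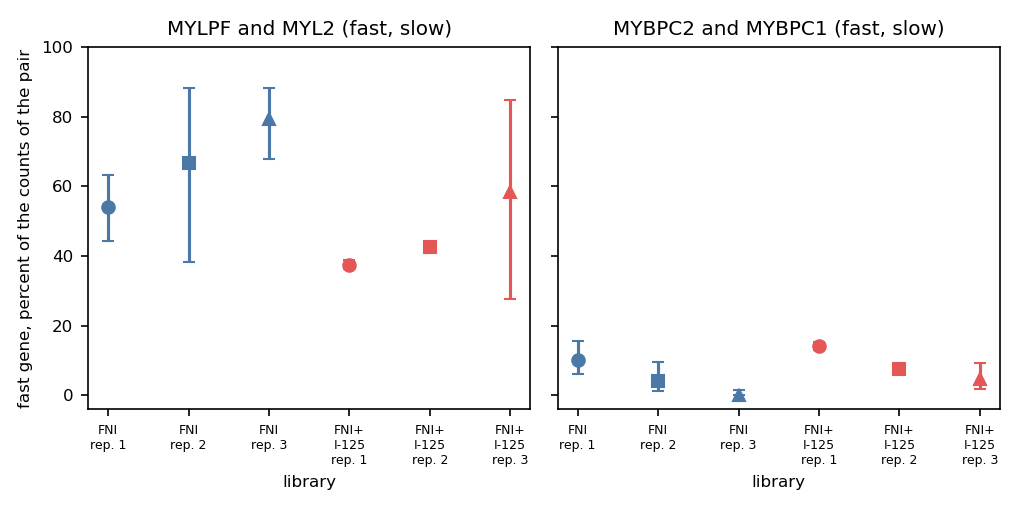
Share of the fast gene in the counts of each fast and slow pair, in percent, for each library; points are shares and bars exact 95% binomial intervals for counting error. For FNI+I-125 replicates 1 and 2 MYLPF lies at 37.6% and 42.6%, below the 79.4% of FNI replicate 3, while MYBPC2 stays at or below 14.1% throughout.

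Within the FNI+I-125 group, replicates 1 and 2 had nearly equal amounts of muscle RNA but differed in single genes. The ratio of replicate 1 to replicate 2 had a median of 1.04 over the 37 genes, and 32 of them lay within 1.5 times, a share of 86.5%. Among all 13301 genes with at least 10 counts in both libraries, 72.7% did. MYH1 had the highest ratio, 4.00 (exact 95% interval 3.80 to 4.21), followed by MYBPC2 at 2.10 (1.83 to 2.43), MYL1 at 1.60 and MYL2 at 1.55. The lowest ratios were those of TRIM63 at 0.431 (0.309 to 0.594) and CSRP3 at 0.704. The 3 genes with the highest ratio encode fast-fibre proteins, but MYLPF and ATP2A1, also fast-fibre genes, were close to 1, at 1.26 and 1.07. Each ratio compares 2 rabbits and has no replicate check.

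**Figure D4:**
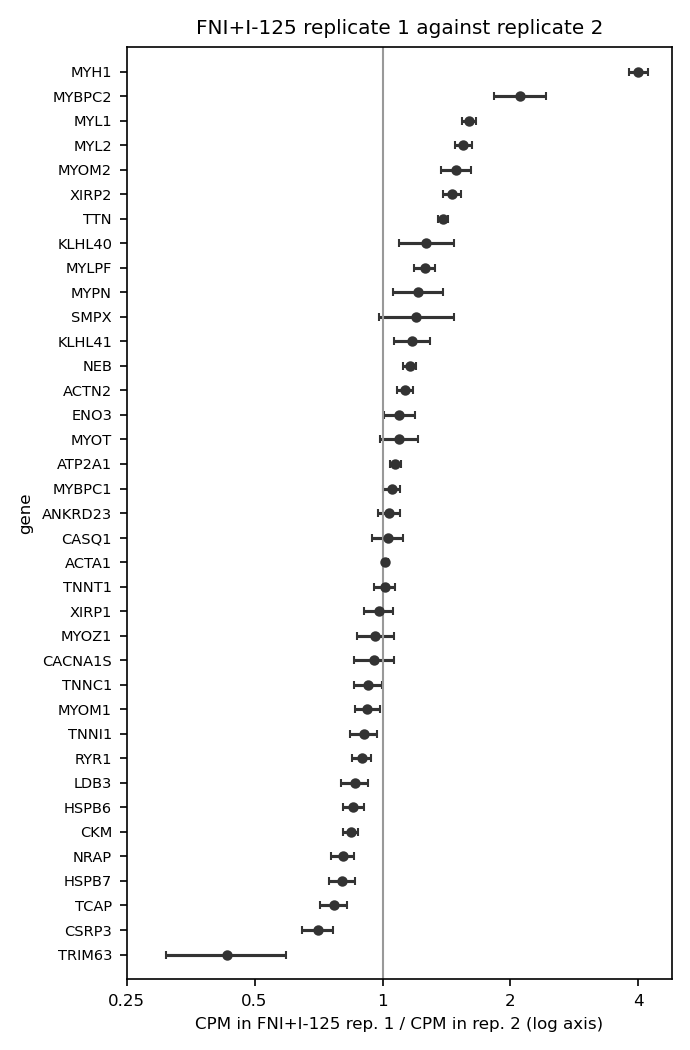
Ratio of CPM in FNI+I-125 replicate 1 to replicate 2 (log axis) for each of the 37 genes, with exact 95% intervals for counting error. Most genes lie near 1, MYH1 stands out at 4.00 and TRIM63 at 0.431.

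Other slow or embryonic partners, chosen after their values were seen, gave further ratios. MYH6, the α-cardiac myosin heavy chain, which rabbit jaw muscle also makes, had counts of 16, 21 and 12 in the FNI group and of 2329, 1789 and 7 in the FNI+I-125 group. MYH3, the embryonic heavy chain, had counts of 131, 6 and 22, then 1632, 2611 and 1. MYH1 made up 80.8% (80.0% to 81.7%) of its sum with MYH3 in FNI+I-125 replicate 1 and 41.5% (40.0% to 42.9%) in replicate 2, so the 2 libraries differed in heavy chain composition although their summed muscle shares were alike. ATP2A1 made up 56.1% and 56.7% of its sum with ATP2A2, the calcium pump of slow muscle and of non-muscle cells, in FNI+I-125 replicates 1 and 2, against 0.338% to 3.24% in the other 4 libraries. CASQ1 took a larger share of its sum with CASQ2, the calsequestrin of slow and heart muscle, in the same libraries, at 57.9% and 41.7% against 0.806% to 9.89% in the other 4. CASQ2 itself had 29.9, 10.3 and 72.7 CPM in the FNI group and 52.1, 97.4 and 13.9 CPM in the FNI+I-125 group. It was higher in FNI replicate 3 than in FNI+I-125 replicate 1, so this share does not measure fast against slow fibres alone. MYL1 with the slow light chain MYL3, and MYOZ1 with its slow relative MYOZ2, did not show a larger fast share in FNI+I-125 replicates 1 and 2. MYL1 made up 88.2% and 81.1% of its pair in FNI+I-125 replicates 1 and 2 and 100%, 81.8% and 96.7% in the FNI libraries. MYOZ1 made up 68.6% and 77.9% of its pair, against 85.0%, 100% and 95.3% in the FNI libraries, where the pair had few counts. MYH1 made up 74.7% and 50.8% of its sum with MYH6 in FNI+I-125 replicates 1 and 2 and 73.3%, 30.0% and 45.5% in the FNI libraries. FNI+I-125 replicate 3 had 10 or fewer counts in each of these last 3 pairs.

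In the test across all 14003 genes that passed the filter on low counts, 32 of the 37 genes were included. CSRP3, MYPN, KLHL40, CACNA1S and SMPX did not pass it. At an adjusted p under 0.05 and a log2 fold change of 1.5 or more, edgeR's quasi-likelihood test called 0% of all genes and 0 of the 32. At the same fold change and an unadjusted p under 0.05, it counted 29 of the 32 as higher, beside 2.77% of all genes. DESeq2 called 32 of 37 higher at its adjusted p, beside 2.04% of all genes. No muscle gene was counted as lower in any of these, beside 0% by edgeR, 2.19% by edgeR's unadjusted p and 1.19% by DESeq2. The contrast is the one on which the list was chosen, and nothing is read from these counts about the group.

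The fitted differences were large with large errors. The log2 fold change of the FNI+I-125 over the FNI group was 7.28 (SE 1.94) for NRAP, 7.22 (SE 2.30) for MYH1, 6.27 (SE 1.90) for TTN and 6.25 (SE 2.29) for ACTA1. For the calcium pump ATP2A1 it was 6.42 (SE 2.08) and for RYR1 4.28 (SE 1.16). The smallest were 1.66 (SE 0.76) for HSPB6 and 1.40 (SE 0.57) for MYOM1. Without the filter, the median over the 37 genes was 5.41, from 1.39 to 7.84, and over all genes 0.00.

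Leaving out single libraries moved the edgeR count, and since the list was chosen for being high in part of the group these counts are a description too. Without FNI+I-125 replicate 3, edgeR called 22 of 37 higher at its adjusted p, and 0 lower, beside 0.266% and 0.014% of all genes, and the log2 fold changes ran from 1.83 to 8.42 with a median of 5.99. Without FNI+I-125 replicate 1 or 2, the median over the 32 tested genes was 4.53 and 4.82, with 0 calls.

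Other genes of the same pathways, from lists that do not hold the 42, were high in the same 2 libraries to a varying degree. Of 30 other sarcomere genes, 28 were higher in FNI+I-125 replicates 1 and 2 than in every FNI library, against 19% of all genes. Their summed level was 1225 to 1479 CPM in the FNI group and 4136, 4311 and 1390 CPM in the FNI+I-125 group. None of the 23 that were tested passed at the adjusted p of edgeR. The 3 most abundant were the tropomyosins TPM1 and TPM2, which cover the actin sites and are also made by non-muscle cells, and FHL1, a LIM protein. TPM1 had 412, 321 and 448 CPM in the FNI group and 899, 673 and 434 CPM in the FNI+I-125 group, and TPM2 had 258, 183 and 314 CPM, then 877, 821 and 244 CPM. FHL1 had 365, 329.5 and 248 CPM, then 459, 546 and 310.5 CPM.

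Of 22 other excitation and calcium genes, 16 were higher in FNI+I-125 replicates 1 and 2 than in every FNI library. This order was seen in 19% of all genes. The summed level was 382 to 413 CPM in the FNI group and 877, 901 and 460 CPM in the FNI+I-125 group. ATP2A2 had 198, 186 and 136 CPM, then 399.5, 364 and 259.6 CPM, and in this gene FNI+I-125 replicate 3 was also above the FNI libraries. ASPH, which includes the junctional protein junctin, had 50.0, 60.6 and 101 CPM, then 101, 42.6 and 93.9 CPM. CHRNE, the adult ε subunit of the acetylcholine receptor, had 51.1, 55.2 and 34.3 CPM, then 45.2, 85.6 and 42.6 CPM, and both genes overlapped between the groups. Of 14 metabolism genes, 13 were higher in the same way, beside the same 19%. Their summed level was 95.0 to 112 CPM in the FNI group and 583, 673 and 84.1 CPM in the FNI+I-125 group. PYGM, the muscle glycogen phosphorylase, had 13.7, 18.0 and 2.36 CPM, then 152, 187 and 4.40 CPM. ACTN3, the fast α-actinin, had 4.86, 2.71 and 16.0 CPM, then 111, 107 and 2.99 CPM. ACTN3 is counted in the list of other sarcomere genes as well. PFKM, muscle phosphofructokinase, had 50.4, 53.0 and 58.6 CPM, then 125, 143 and 51.7 CPM. The adjusted p of edgeR was passed by 0 of the 18 and 0 of the 10 genes tested.

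In summed level, the lists for muscle precursors and for denervated muscle differed less between the libraries. Without the filter on low counts, the median log2 fold change was 3.36 for the precursor list and 0.542 for the denervation list. It was 3.04, 1.29 and 3.28 for the other sarcomere, excitation and metabolism genes, so the precursor list was not smaller by this measure. Of 10 satellite cell and myogenic regulator genes, 7 were higher in FNI+I-125 replicates 1 and 2 than in every FNI library, beside 19% of all genes, and the summed levels were 43.3 to 92.4 CPM in the FNI group and 124, 102 and 81.0 CPM in the FNI+I-125 group. MEF2C, a factor of muscle and of other cells, had 56.0, 63.9 and 39.0 CPM in the FNI group and 82.3, 76.8 and 56.2 CPM in the FNI+I-125 group. MEF2C thus gave most of the summed level of this list in every library. MYF6, a regulator of differentiated fibres, had counts of 1, 0 and 3, then 153, 83 and 2. Of 13 denervation response genes, 5 were higher in the same way, beside the same 19%, with 245 to 308 CPM summed in the FNI group and 434, 513 and 321 CPM in the FNI+I-125 group. The 5 were MYH3, given above, MYOG and the acetylcholine receptor subunits CHRNA1, CHRND and CHRNG, all named after their values were seen. CHRND had at most 0.189 CPM in an FNI library and 4.51 and 7.97 CPM in FNI+I-125 replicates 1 and 2, and CHRNG, the embryonic γ subunit, had at most 1.29 CPM, then 3.92 and 11.1 CPM. HDAC9 and DACH2 of the same list, also named after their values were seen, went the other way. They were lower in every FNI+I-125 library than in every FNI library, an order seen in 10.7% of all genes. HDAC9 had 20.0, 21.6 and 24.4 CPM, then 13.7, 18.1 and 17.9 CPM. DACH2 had 3.98, 4.79 and 4.37 CPM, then 1.31, 2.37 and 1.12 CPM. The 3 most abundant genes of the list overlapped between the groups. NCAM1, a cell adhesion molecule also made by Schwann cells, had 136, 109 and 126 CPM, then 70.1, 138 and 101 CPM. FBXO32, the ubiquitin ligase atrogin-1, had 61.1, 73.8 and 29.7 CPM, then 71.6, 89.4 and 81.4 CPM, and GADD45A, a stress response gene, had 45.8, 54.4 and 47.2 CPM, then 72.6, 44.9 and 60.6 CPM.

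**Figure D5:**
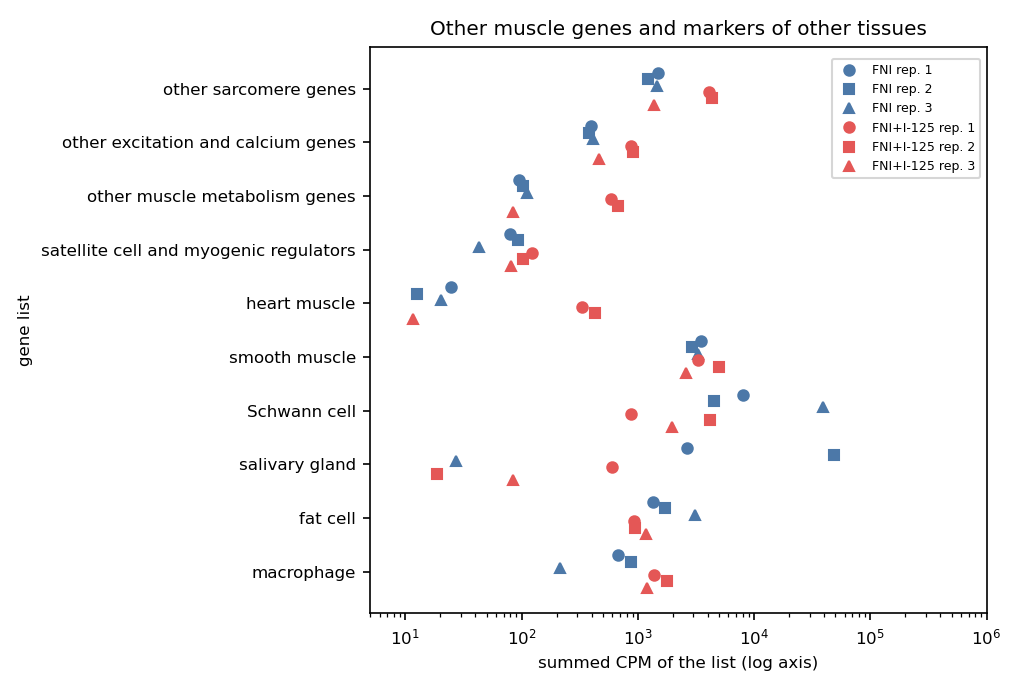
Summed CPM (log axis) of other muscle gene lists and of markers of other tissues, with 1 point per library. The muscle lists and heart markers are higher in FNI+I-125 replicates 1 and 2, and Schwann cell markers are highest in FNI replicate 3 at 38921 CPM. Salivary gland markers are highest in FNI replicate 2 at 48615 CPM, of which DNASE1 alone gave 48086 CPM.

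Markers of other tissues were set beside the muscle genes. Of 5 heart markers with a row, 4 were higher in FNI+I-125 replicates 1 and 2, with 12.5 to 24.8 CPM summed in the FNI group and 334, 424 and 11.7 CPM in the FNI+I-125 group. MYH6, ACTC1 and MYL4 of this list are also made by jaw or developing skeletal muscle. Of 9 smooth muscle markers, 2 were higher, and the sums overlapped at 2941 to 3465 CPM and 2610 to 4978 CPM. Both counts stand beside the 19% of all genes with this order.

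The summed Schwann cell markers of the groups did not overlap and were lower after I-125, running from 4521 to 38921 CPM in the FNI group and from 874 to 4150 CPM in the FNI+I-125 group. Their median log2 fold change was -2.54, beside 0.00 over all genes. At an unadjusted p under 0.05 edgeR counted 4 of 13 as lower, beside 2.19% of all genes, and 0 at the adjusted p. FNI+I-125 replicate 1, at 874 CPM, was the lowest library, and FNI+I-125 replicate 3, low in muscle genes, stood at 1982 CPM. The 7 salivary gland markers summed to 27.2 to 48615 CPM in the FNI group and 18.6 to 595 CPM in the FNI+I-125 group. DNASE1 alone gave 48086 of the 48615 CPM in FNI replicate 2 and 573 of the 595 CPM in FNI+I-125 replicate 1. KRT7 had another order, with 39.9, 10.3 and 3.96 CPM in the FNI group and 0.980, 0.670 and 33.6 CPM in the FNI+I-125 group. LPO, KRT18 and ELF5 were at 0 counts in at least 1 library. The 6 fat cell markers summed to 1357 to 3106 CPM and 920.1 to 1181 CPM, and the 6 endothelial markers to 2281 to 2779 CPM and 1711 to 2837 CPM. The 7 fibroblast and tendon markers summed to 47563 to 95607 CPM and 68573 to 134281 CPM, with TNMD at 0 counts in at least 1 library. All 8 macrophage markers were higher in FNI+I-125 replicates 1 and 2 than in every FNI library, beside 19% of all genes. In FNI+I-125 replicate 3, 6 of the 8 were also higher, beside 31.1% of all genes. The macrophage sums were 214 to 877 CPM in the FNI group and 1194 to 1769 CPM in the FNI+I-125 group. The part of these tissues in the level of the muscle genes was not tested.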

How the data were processed

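The data were counts of RNA-seq reads per gene in 6 libraries of rabbit facial nerve, 3 each for FNI and FNI+I-125. The authors prepared stranded mRNA libraries, sequenced them as paired ends on an Illumina HiSeq platform and deposited raw counts without normalization, with 1 file for each library. HISAT2 and OryCun2.0 come from the submitters' processing notes, and the counting program, its annotation and its strand setting are not given in the sources used here, so reads of genes that overlap on opposite strands may not be separated. LOC numbers stand for 2992 gene names, 542 of which could be replaced by symbols in the RefSeq table of assembly mOryCun1.1, used for names only. For 25 genes a spreadsheet date stands in place of a name, and these were kept in the tests.

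The 42 genes, the other lists and the tests were chosen with earlier results of these data known. The fit was made with edgeR 4.0.16 in R 4.3.3 (TMM, filterByExpr with a minimum count of 10, quasi-likelihood test, two-sided, Benjamini-Hochberg adjustment), with calls at an adjusted p under 0.05 and a log2 fold change of 1.5 or more. Alternatives were DESeq2 1.42.0, limma-voom 3.58.1, other normalizations and filters, a block for the replicate number and fits that each left out 1 library. P-values measure the spread between single rabbits. Intervals are exact binomial (Clopper-Pearson) at 95% and cover counting error only. Scripts were tested on simulated data. Values in every library are given for the isoform pairs, the 4 excitation genes and the 3 genes with the highest mean CPM in each class, and in the other muscle lists for the 3 genes with the highest mean CPM, except MYF6, given in counts. Of the genes this rule selects, 1 is not reported here. Other genes were named after their values were seen. No sequence was printed because none was given for rabbit.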

Additional observations from a re-analysis of the deposited data

How the results depend on the processing

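With edgeR the calls were 0 higher and 0 lower among all genes and 0 among the muscle genes, under every normalization and filter tried and with limma-voom. DESeq2 gave 290 higher and 170 lower genes, with 32 muscle genes higher. An unadjusted p gave 388 higher and 306 lower with edgeR (29 muscle genes higher) and 631 and 493 with DESeq2 (36 muscle genes higher). Leaving out each library in turn gave 0 to 38 higher and 0 to 2 lower genes, with 0 to 22 muscle genes higher, and the upper ends came without FNI+I-125 replicate 3. No muscle gene was called lower under any of these settings, and none changed direction.

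The replicate block gave 0 calls. Deviations of same-numbered libraries from their group mean correlated at 0.0519, -0.191 and -0.137. With 3 libraries in each group, these values cannot show whether same-numbered rabbits were handled together.

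The difference in mean summed share was 0.484 percentage points and stayed between 0.352 and 0.730 with each library left out. Without ACTA1, CKM and ATP2A1 the FNI and FNI+I-125 means were 0.0160% and 0.312%. The fast share for troponin pairs alone and per kilobase of coding length was not run. Depth limits the isoform shares where muscle genes are sparse, since 5, 16 and 10 of the 37 genes had under 10 counts in the FNI libraries and 18 in FNI+I-125 replicate 3.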

Other observations

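The pattern of the muscle genes was also looked for in all 17396 genes, after values were seen. In 100 genes, or 0.575%, FNI+I-125 replicates 1 and 2 were each at least 8 times the highest FNI library while FNI+I-125 replicate 3 was not above it. Of these, 32 were among the 42 genes, 26 in the other muscle lists, 1 was a heart marker (MYH6) and 41 were in none of the lists. The 41 include CA3, the carbonic anhydrase of slow fibres, TRIM72, a membrane repair protein of striated muscle, SMTNL1 and MYO18B of the contractile apparatus, SRL of the sarcoplasmic reticulum, the muscle ribosomal protein RPL3L and VGLL2, a cofactor of muscle transcription. These were picked for a known role in muscle. Others, such as KCNC4, DUSP26 and TCEAL7, were not sorted by tissue. The most abundant has only a LOC number, LOC100008687, with 502 and 826 CPM in FNI+I-125 replicates 1 and 2. Genes of differentiating muscle showed it at low counts, as for MYOD1, whose counts of 56 and 40 were those of FNI+I-125 replicates 1 and 2 against 0 in the other 4 libraries, where up to 3 counts per library are allowed.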
